A study of Homo sapiens with 16 samples.

Results

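The comparison described here sets one control culture of a YAP experiment against the other: cells carrying an empty vector against cells transfected with a control siRNA (siCTRL). The libraries were chosen by their sample labels, 1 empty vector and 1 siCTRL library from A431 cells and 1 of each from HaCaT cells, which makes 4 of the 16 libraries of the series. A431 is a human epidermoid carcinoma line with a high level of the EGF receptor, and HaCaT is an immortalised human keratinocyte line. The remaining 12 libraries are triplicates, in each line, of cells given siRNA against YAP1 (siYAP) and of cells expressing YAP5SA, a YAP mutant that escapes phosphorylation by the Hippo pathway kinases. All cultures were grown in DMEM with 10% FCS. By the labels, siRNA was transfected on 2 occasions 24 h apart and RNA was taken 48 h after the second. The study's methods say that the vector was transfected too, but neither they nor the labels give the time between that transfection and harvest, so vector, transfection reagent, time in culture and day of harvest cannot be told apart in any comparison below. Neither control was meant to alter YAP, and each is 1 culture of 1 line.

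The gene groups that set the control cultures apart have well-known biology. RIG-I (DDX58) and MDA5 (IFIH1) sense foreign RNA in the cytoplasm, and the interferons made in response act through their receptors and the interferon-stimulated response element of genes for antiviral effectors. Replication-dependent histones are transcribed in S phase and their messages normally end in a stem-loop rather than a poly(A) tail. Mitotic genes are held down in resting cells by complexes that bind the cell-cycle homology region (CHR) of their promoters. In keratinocytes, both proliferation and the keratins expressed depend on density and on time in culture.

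Between 18115624 and 34382933 estimated counts were listed for the 4 control libraries, and levels are given as CPM, counts relative to the size of the library, scaled by the TMM method of edgeR. Since each side of the comparison is 1 library, a fold change here has no replicate check. Its 95% interval covers counting error only, and a count of 0 was raised to a floor of 3 counts, which gives a lower bound. Each empty vector library held most of the genes that mark its line in siCTRL. Of the 47 genes with at least 10 CPM in siCTRL A431 and no count in siCTRL HaCaT, 47 reached 1 CPM in empty vector A431, against a median of 0.0318 CPM in empty vector HaCaT, and of the 37 genes with the opposite pattern 34 did so in empty vector HaCaT. In the empty vector library of the other line, 26 of the 47 and 31 of the 37 were at 3 counts or fewer, so the rest were detected there. All 11 keratinocyte markers were detected in every control library. PDGFRA, PDGFRB, KDR, TEK and CD3E were at 0 counts in the 4 libraries. In such bulk samples, fewer cells of a type and less RNA per cell cannot be told apart. Summed over 7 fibroblast markers the level was between 0.669 and 22.3 CPM, over 5 endothelial markers between 2.10 and 59.2 CPM, and over 6 leukocyte markers between 1.02 and 6.06 CPM. Among the treated libraries, replicate 1 of YAP5SA stood apart in A431, with 590 and 394 genes over 2-fold from replicates 2 and 3, which differed from each other at 32.

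Far more genes separated the controls in HaCaT than in A431. Over 2-fold differences were found for 531 genes higher in empty vector and 246 lower in A431, which is 6.49% of 11967 genes with a mean above 10 counts, a logCPM above 1 and at least 1 CPM in the higher library. In HaCaT the counts were 2076 higher and 2053 lower, or 34.5% of 11977. Pairs of replicates of 1 treated group differed at 32 to 590 genes in A431 and at 80 to 959 in HaCaT. The control difference in HaCaT was above every replicate pair, and in A431 it was 777 genes against 590 for the most divergent pair. Ranked over 12240 genes, whose lengths are the same in every library, the 2 control libraries had a Spearman correlation of 0.971 in A431 and 0.868 in HaCaT. Empty vector HaCaT was closer to the 3 YAP5SA libraries of its line (0.960 to 0.976) and siCTRL HaCaT to the 3 siYAP libraries (0.973 to 0.977). With the vector libraries of A431, empty vector HaCaT was at 0.861 to 0.879, a range that holds its 0.868 with siCTRL HaCaT. With the siRNA libraries of A431, siCTRL HaCaT was lower, at 0.817 to 0.832. In A431 the empty vector was at 0.980 to 0.993 with YAP5SA, while siCTRL with siYAP was at 0.969 to 0.976, a range that holds its 0.971 with empty vector.

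A total of 242 genes were over 2-fold higher in empty vector in both lines, 2.07% of the 11708 measured in both, and 95 were lower in both, 0.811%, which together make 2.88%. A gene over 2-fold in a line and not the same way in the other is said to differ in that line alone. This includes the 113 genes over 2-fold in opposite directions, described below. In HaCaT alone 1768 genes (15.1%) were higher and 1883 (16.1%) lower, or 31.2% together. This split moved with scaling and filter, to 1430 higher and 2272 lower with total counts and to 1491 and 1008 with at least 10 CPM in the higher library. A further 66 genes (0.539%) were higher and 75 (0.613%) lower in HaCaT while under 1 CPM in both A431 controls. SNORA80B, just inside, had a log2 fold change of 1.00002 in A431, and SDF2L1, just outside, 0.995507. On the lower side UST, inside, had -1.00156 and SOX4, outside, -0.997839. A test was made by fitting all 16 libraries in 8 groups with edgeR's quasi-likelihood method, in which each lone control is assumed to vary like the treated triplicates, and FDR below is its Benjamini-Hochberg value over all genes. It called 172 genes in A431 (1.41% of 12240, with 0.874% higher and 0.531% lower), a count that ranged from 67 to 465 as single treated libraries were left out, and 5789 in HaCaT (47.3%). Over both lines it called 2421 genes higher (19.8%) and 1831 lower (15.0%), or 34.7% together, and 70 with the 4 control libraries fitted alone. The effect differed between the lines at 3225 genes (26.3%) by the test of the difference itself, 15.8% higher and 10.5% lower in HaCaT. Transcript length moved with the comparison in the same way in both lines. Genes over 2-fold higher in empty vector had a median length of 2340 bases in A431 and 3048 in HaCaT, against 3685 for all genes. GC content moved in opposite ways in the 2 lines. Genes over 2-fold higher in empty vector had a median GC content of 56.1% in A431 and 44.1% in HaCaT, against 47.8% for all genes, and those lower in HaCaT had 54.8%. With GC content and transcript length removed by regression, 199 genes were over 2-fold higher and 97 lower in both lines.

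**Figure D1:**
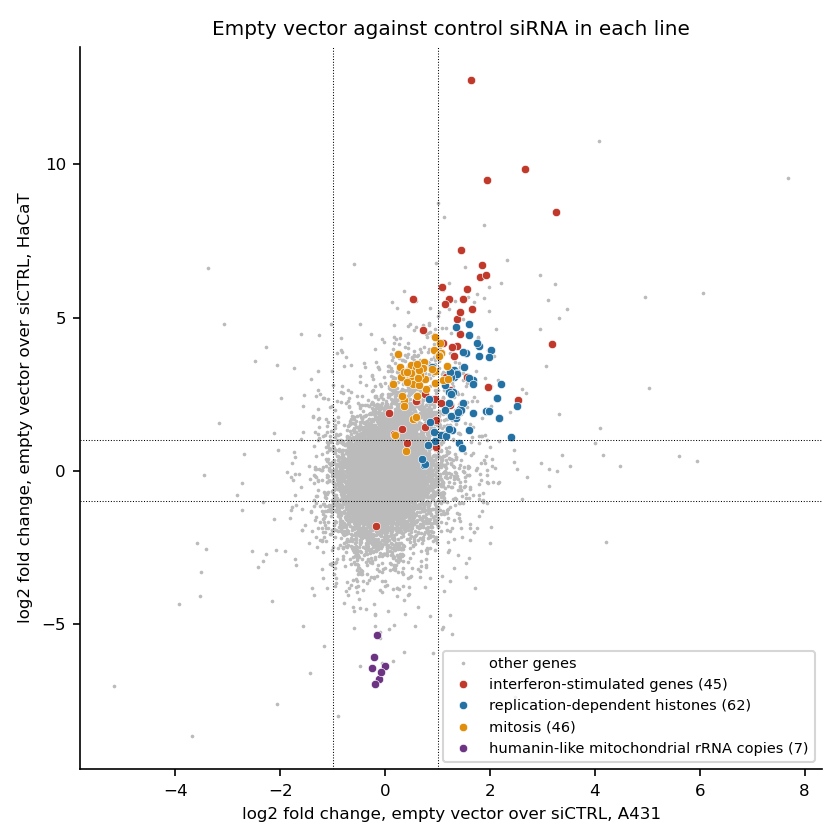
Log2 fold change of empty vector over siCTRL for each gene measured in both lines, A431 on the horizontal and HaCaT on the vertical axis, with dotted lines at 2-fold. Interferon-stimulated genes and histones lie in the upper right, mitotic genes mostly above the line for HaCaT but left of the line for A431, and the 7 humanin-like genes far down in HaCaT near 0 in A431.

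Among the genes higher in both lines, GH1, which encodes growth hormone, had no count in any of the 8 siRNA libraries and was present in all 8 vector libraries. It stood at 30.3 CPM in empty vector A431 and 123 CPM in empty vector HaCaT, at least 206-fold and 749.9-fold above siCTRL, and at 20.1, 27.01 and 27.9 CPM in the YAP5SA libraries of A431 and 64.3, 199 and 87.4 CPM in those of HaCaT. Whether the GH1 reads came from the cells' own copy of the gene was not tested. No other gene of the named set was split in this all-or-none way. ANXA10, an annexin, was 0.0980 CPM in siCTRL and 3.03 CPM in empty vector in A431, a ratio of 30.9 with a counting interval of 8.23 to 261 since siCTRL held only 2 counts, and 0.546 CPM in siCTRL and 27.7 CPM in empty vector in HaCaT. CLCA2, a protein of basal keratinocytes that takes part in adhesion, was 1.32 CPM in siCTRL and 14.7 CPM in empty vector in A431 and 5.35 CPM in siCTRL and 206 CPM in empty vector in HaCaT, 11.1-fold and 38.6-fold higher. The siYAP libraries of A431 held 22.6, 12.6 and 13.4 CPM of CLCA2, so siYAP overlapped with the vector libraries there. HAS2, a hyaluronan synthase, was 10.0-fold higher in A431 and 31.8-fold higher in HaCaT, and the siYAP libraries of HaCaT, at 5.31, 6.27 and 5.72 CPM, lay above the 0.656 CPM of siCTRL.

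CA9, the hypoxia-induced carbonic anhydrase, was 2.79 CPM in siCTRL and 26.3 CPM in empty vector in A431 and 0.109 CPM in siCTRL and 7.55 CPM in empty vector in HaCaT. The first is 9.42-fold and the second a ratio of 69.1, counting interval 18.9 to 574, over 2 counts. The vector libraries lay above the siRNA libraries for CA9 in both lines, as they did for 17.6% of all genes in A431 and 30.4% in HaCaT. In HaCaT the YAP5SA libraries had 7.69, 3.39 and 8.72 CPM and the siYAP libraries 0.0387, 0.0972 and 0.0661 CPM. SMN2 and RPL21P28, which share sequence with SMN1 and with other copies of RPL21, were in the same top 10, but their estimated counts can be split either way between copies and varied within triplicates, for SMN2 from 1.88 to 54.6 CPM among the YAP5SA libraries of A431, so they are uncertain. SNORA53, a small nucleolar RNA, was 1.37 CPM in siCTRL and 11.8 CPM in empty vector in A431 and 1.09 CPM in siCTRL and 51.97 CPM in empty vector in HaCaT. IFI6 and ISG15 completed the list and are described with their group.

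Genes lower in both lines included several for adhesion and surface proteins. CDH5, the cadherin of endothelial junctions, was 31.1 CPM in siCTRL and 2.43 CPM in empty vector in A431 and 51.8 CPM in siCTRL and 0.127 CPM in empty vector in HaCaT, 12.8-fold and 407-fold lower, with edgeR's FDR = 0.00527 and 1.63e-06. The YAP5SA libraries were also low, at 1.12, 1.35 and 1.25 CPM and 0.666, 0.316 and 0.995 CPM, while the siYAP libraries held 15.8, 18.9 and 18.1 CPM and 12.2, 12.1 and 13.7 CPM. The endothelial receptors KDR and TEK were at 0 in the 4 control libraries, and CDH5 made up most of the endothelial marker sum in the siCTRL libraries but not in the empty vector ones. PSG5, a pregnancy-specific glycoprotein, was 4.21 CPM in siCTRL and 0.276 CPM in empty vector in A431 and 83.96 CPM in siCTRL and 4.14 CPM in empty vector in HaCaT, and fell in both by edgeR (FDR = 0.0234 and 3.58e-05). FAT3, an atypical cadherin, fell from 119.8 to 23.4 CPM in HaCaT, 5.11-fold, and in A431, where empty vector held 3 counts, from 1.67 CPM with a ratio of 12.1 and a counting interval of 3.80 to 61.5.

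ERP27, a disulphide isomerase relative of the endoplasmic reticulum, was 5.39 CPM in siCTRL and 1.01 CPM in empty vector in A431 and 52.8 CPM in siCTRL and 5.99 CPM in empty vector in HaCaT and passed edgeR in both (FDR = 0.043 and 1.39e-04). PIGR, the receptor that carries IgA across epithelia, was 74.3 CPM in siCTRL and 12.8 CPM in empty vector in A431, but the siYAP libraries of that line, at 6.998, 12.2 and 6.69 CPM, overlapped with the 11.4, 7.72 and 9.73 CPM of YAP5SA, and siCTRL stood apart from both. MYPN, OVGP1 and SYTL5 were 7.78-fold, 9.78-fold and 5.93-fold lower in HaCaT and lower than 2 CPM in both A431 controls. LOC102723859 and RALGAPA1P, an uncharacterised locus and a pseudogene, complete the 10 lowest, and within triplicates they ranged from 0 up to 27.8 and 5.74 CPM. Further genes lower in both lines came from the lists: CLDN1, a tight-junction claudin, fell from 2268 to 533 CPM in A431 and from 955 to 161 CPM in HaCaT, with edgeR's FDR = 0.0139 and 1.16e-04. TGFB2, a TGF-beta ligand, fell 6.65-fold in A431 and 2.41-fold in HaCaT. TIMP3, an inhibitor of matrix proteases, which passed edgeR in HaCaT only (FDR = 0.199 in A431 and 2.32e-04 in HaCaT), was 2.29-fold and 9.25-fold lower.

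Genes that interferon induces were higher in both empty vector cultures. Of 45 listed and tested, 31 were over 2-fold higher in empty vector A431 and 42 in empty vector HaCaT, 31 of them in both, and 1, IFITM2, was over 2-fold lower in HaCaT. The backgrounds, for this list and those below, are 4.44% of all genes higher in A431 and 17.3% in HaCaT, and 2.06% and 17.1% lower. The median log2 fold change was 1.24 in A431 and 4.05 in HaCaT, beside 0.00 and 0.03 over all genes. By edgeR 18 rose in A431 and 44 in HaCaT, against 0.874% and 26.2% of all genes, and the rise was larger in HaCaT for 35 of them, against 15.8% of all genes. Summed over the list, siCTRL held 5879.7 CPM in A431 and 2893 CPM in HaCaT, and empty vector 13176 and 23378 CPM, so HaCaT was the lower line under siRNA and the higher one with the vector.

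The sensors of foreign RNA were among the members. DDX58 was 152 CPM in siCTRL and 394 CPM in empty vector in A431 and 29.4 CPM in siCTRL and 493 CPM in empty vector in HaCaT, 2.60-fold and 16.8-fold higher. IFIH1 was 2.02-fold higher in A431, without passing edgeR (FDR = 0.124), and 13.96-fold in HaCaT. DHX58 (LGP2), which modulates both sensors, was 8.87 CPM in siCTRL and 26.3 CPM in empty vector in A431 and 1.69 CPM in siCTRL and 14.01 CPM in empty vector in HaCaT. For all 3 the 4 vector libraries of HaCaT lay above its 4 siRNA libraries, as they did for 30.4% of all genes. Of the signalling members, IRF7, the factor that amplifies interferon transcription, rose 5.78-fold and 4.92-fold. USP18, which switches the receptor off again, rose 43.3-fold in HaCaT and was 2.20-fold higher in A431 without passing edgeR (FDR = 0.166).

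Antiviral effectors followed. IFI27, a mitochondrial interferon-induced protein, had 1 count in siCTRL HaCaT and 379.6 CPM in empty vector HaCaT, a ratio of 6949 with a counting interval of 1247 to 274483. In A431 the same gene was already at 185 CPM in siCTRL and reached 576 CPM. MX2, a dynamin-like restriction factor, was 3.43 CPM in siCTRL and 21.7 CPM in empty vector in A431 and 0.219 CPM in siCTRL and 202 CPM in empty vector in HaCaT, 6.33-fold and 923-fold higher. MX1 was 2.72-fold and 147-fold higher, IFI44L 3.83-fold and 713-fold, and IFI6 9.54-fold and 353-fold. For each of MX2, MX1, IFI44L and IFI6 the 4 vector libraries of a line lay above its 4 siRNA libraries, in both lines, as they did for 17.6% of all genes in A431 and 30.4% in HaCaT. ISG15, the ubiquitin-like modifier, was not called different between the lines by edgeR (difference of log2 fold changes 0.96 ± 1.01 SE, FDR = 0.515): it was 5.39 CPM in siCTRL and 48.9 CPM in empty vector in A431 and 1.80 CPM in siCTRL and 31.9 CPM in empty vector in HaCaT. The 2-5A synthetases OAS1, OAS2 and OAS3, which arm RNase L, were 3.87-fold, 2.69-fold and 2.42-fold higher in A431 and 6.59-fold, 35.97-fold and 16.6-fold higher in HaCaT. IFIT1 and IFIT3, which bind foreign RNA, were 61.2-fold and 22.3-fold higher in HaCaT and 2.95-fold and 2.71-fold in A431. BST2 (tetherin) went from 0.819 to 52.5 CPM in HaCaT.

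**Figure D2:**
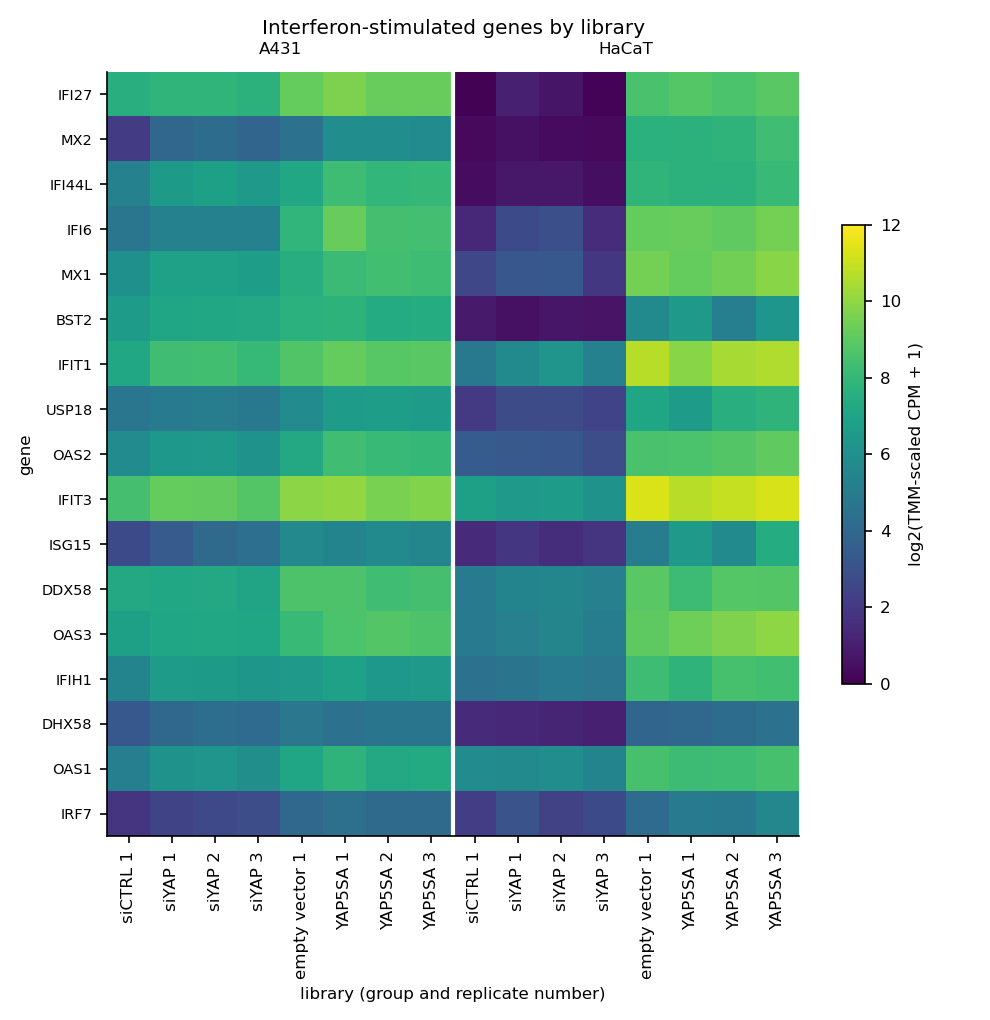
Level of 17 interferon-stimulated genes described in the text, each over 2-fold higher in both lines, as log2 of TMM-scaled CPM plus 1, in each of the 16 libraries (columns, named by group and replicate number). In HaCaT the 4 siRNA columns are dark and the 4 vector columns bright, while in A431 the siRNA columns are already at intermediate levels.

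The interferon-stimulated response element was looked for, as a pair of GAAA half-sites with 2 bases between them, on either strand in the RefSeq promoters (GRCh38.p14) from 250 bases before to 50 after the start. It was in 23 of the 35 members with a promoter in that table, or 65.7%, and in 3.65% of all 27305 promoters. Among all tested genes with a promoter 2.76% had it, among those over 2-fold higher in both lines 15.8% and lower in both 1.45%. The stretches below show it in members described above, in capitals, read on the strand of the gene, where TTTC is the same half-site on the other strand. A match is a description of letters and not a measured site.
ISG15, GRCh38.p14 chr1:1013382-1013407, + strand, 107 bases before the start: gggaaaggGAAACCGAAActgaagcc
IFI6, GRCh38.p14 chr1:27672290-27672315, - strand, 115 bases before the start: agagagggGAAAATGAAActgcagag
IFIT1, GRCh38.p14 chr10:89392499-89392524, + strand, 116 bases before the start: agctttagTTTCACTTTCccctttcg
OAS3, GRCh38.p14 chr12:112938323-112938348, + strand, 143 bases before the start: aaagaaacGAAACTGAAAgcagggaa
BST2, GRCh38.p14 chr19:17405737-17405762, - strand, 124 bases before the start: gggaaactGAAACTGAAAacctaatt

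Replication-dependent histone genes were the second group shared by the lines. Of 62 tested, 52 were over 2-fold higher in empty vector A431, 54 in HaCaT and 49 in both, none was lower, and the median log2 fold change was 1.38 in A431 and 2.28 in HaCaT. By edgeR only 2 rose in A431 and 48 in HaCaT, against 0.874% and 26.2% of all genes. Summed over the 64 listed, the level was 2176 CPM in siCTRL and 5568 CPM in empty vector A431, and 1080.3 and 3917 CPM in HaCaT. The treated libraries lay on the same sides: siYAP held 1003, 1528 and 1471 CPM and YAP5SA 3789.6, 7185 and 6947 CPM in A431, and 992, 1087 and 938 CPM and 3442, 3830.0 and 5019 CPM in HaCaT. All classes were included. The linker histone HIST1H1B was 108 CPM in siCTRL and 292 CPM in empty vector in A431 and 32.5 CPM in siCTRL and 131 CPM in empty vector in HaCaT, HIST1H2BM, an H2B gene, 2.54-fold and 26.04-fold higher, HIST1H3B, an H3 gene, 2.59-fold and 9.13-fold, and HIST1H4A, an H4 gene, 4.08-fold and 15.5-fold. Members with identical copies, such as HIST2H4A and HIST2H4B, carry equal estimated counts and are 1 measurement rather than 2.

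Small nuclear and nucleolar RNAs, which are short and carry no poly(A) tail, were also higher in empty vector, but in A431 the vector and siRNA libraries overlapped. Of 77 tested (430 listed), 20 were over 2-fold higher in A431 and none lower, 55 higher and 4 lower in HaCaT, and 20 higher in both. None passed edgeR in A431, where 8 were higher at an unadjusted p under 0.05 and DESeq2 called 0 as well. In HaCaT 46 rose and 3 fell by edgeR, against 26.2% and 21.1% of all genes. RNU1-13P, a U1 pseudogene that can take reads of U1 itself, was 1621 CPM in siCTRL and 6296 CPM in empty vector in A431 and 479 CPM in siCTRL and 7353 CPM in empty vector in HaCaT. In A431 the siYAP libraries spanned 915, 2432 and 3737 CPM and the YAP5SA libraries 4962, 2334 and 1339.7 CPM, so the groups overlapped. RNU12, the U12 RNA of the minor spliceosome, was 3.97-fold higher in A431 and, over 3 counts in siCTRL, a ratio of 63.9 in HaCaT with a counting interval of 21.7 to 312. SNORA74A and SNORA23, guides of pseudouridylation, were 5.01-fold and 3.95-fold higher in A431 and 117-fold and 36.9-fold in HaCaT. With transcript length and GC content removed, the median log2 fold change of these RNAs went from 0.57 to -0.25 in A431 and from 2.34 to 0.59 in HaCaT, that of the histones from 1.38 to 0.91 and from 2.28 to 1.83, and that of the interferon-stimulated genes from 1.24 to 1.26 and from 4.05 to 3.78.

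**Figure D3:**
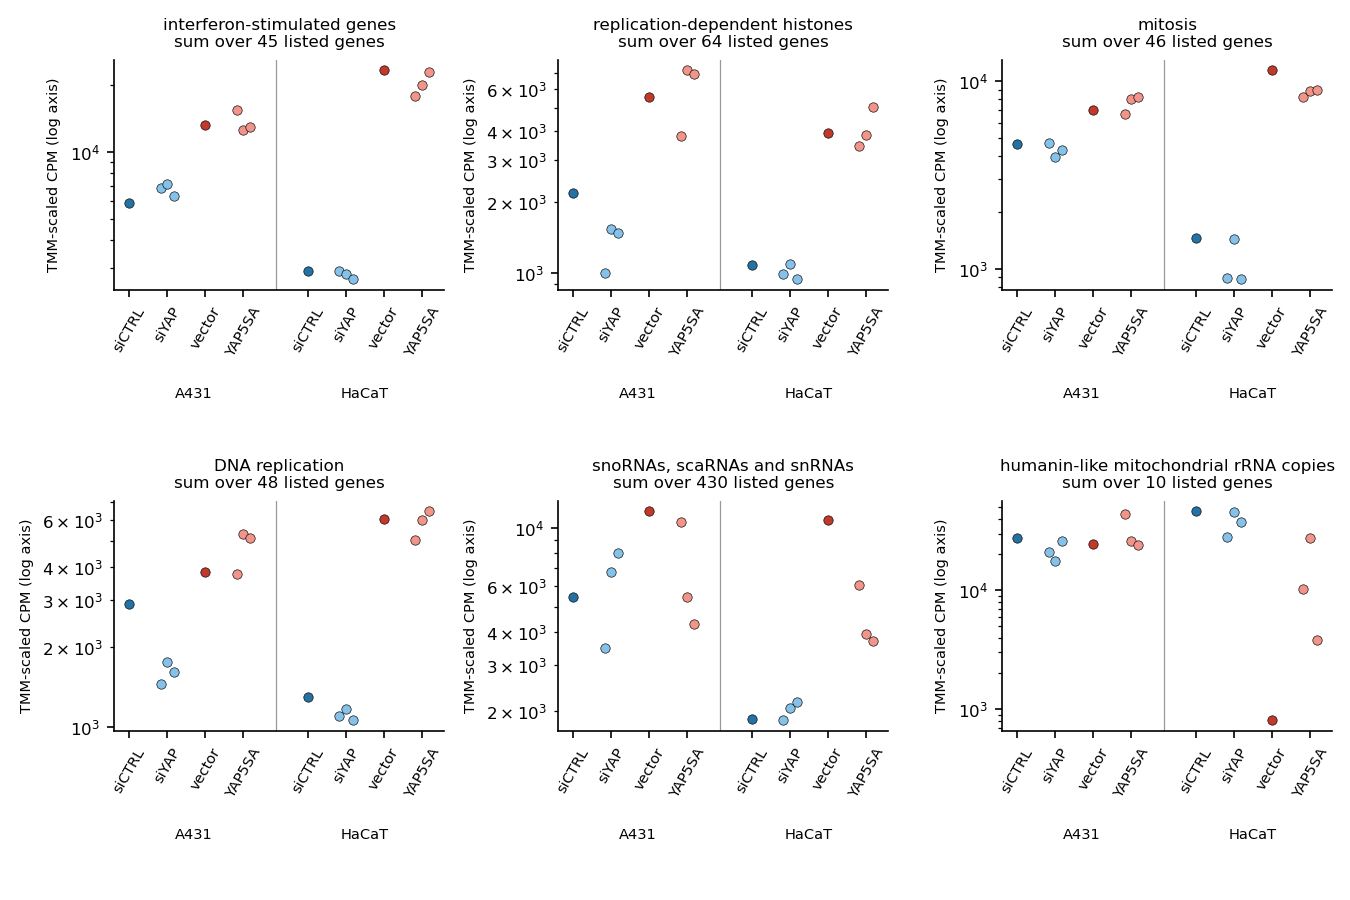
Summed TMM-scaled CPM of 6 gene lists in each library, on log axes, with A431 left and HaCaT right of the grey line and 1 point a library. The empty vector point lies with the YAP5SA points and apart from both siRNA groups for the interferon-stimulated and histone lists in both lines, whereas for the small RNAs of A431 the groups overlap.

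Cell-cycle genes differed widely between the controls in HaCaT and less in A431. Of 46 mitotic genes tested, 45 were over 2-fold higher in empty vector HaCaT and 7 in A431, with medians of 3.20 and 0.61, and none was over 2-fold lower in either. Of 48 genes of DNA replication, 43 were over 2-fold higher in HaCaT and 3 in A431. By edgeR 45 mitotic and 45 replication genes rose in HaCaT, against 26.2% of all genes, and 1 of each list in A431, against 0.874%. The rise was larger in HaCaT for 41 and 40, against 15.8% of all genes. CDK1, the kinase that starts mitosis, was 166 CPM in siCTRL and 319 CPM in empty vector in A431 and 23.7 CPM in siCTRL and 364 CPM in empty vector in HaCaT. CCNA2, cyclin A2, was 79.8 CPM in siCTRL and 166 CPM in empty vector and 11.9 CPM in siCTRL and 216 CPM in empty vector. BIRC5 (survivin) was 14.3-fold higher in HaCaT and 2.11-fold in A431, and NUF2, of the outer kinetochore, 20.6-fold and 1.94-fold. The 4 vector libraries of HaCaT lay above the 4 siRNA libraries for each of these 4 genes, as they did for 30.4% of all genes.

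The summed level of mitotic genes was 4599.9 CPM in siCTRL and 6978 CPM in empty vector for A431, and 1458 and 11416 CPM for HaCaT. Of these 4 libraries, siCTRL HaCaT held the least. RRM2, which makes deoxynucleotides, was 61.9 CPM in siCTRL and 144 CPM in empty vector in A431 and 9.83 CPM in siCTRL and 386 CPM in empty vector in HaCaT. TYMS (thymidylate synthase) was 2.81-fold and 31.00-fold higher, TK1 (thymidine kinase) 3.34-fold and 9.55-fold, and these 3 were over 2-fold in both lines. CDC45 and CDC6, which fire and license origins, were 26.2-fold and 21.2-fold higher in HaCaT and 1.36-fold and 1.86-fold in A431. In each of these genes the fold was larger in HaCaT. The CHR motif, searched as TTTGAA on either strand in the same promoters, was in 28 of 40 mitotic genes (70.00%), 2 of 41 replication genes and 15.4% of all promoters. Among all tested genes with a promoter 9.71% held it, among those higher in HaCaT alone 15.4%, lower in HaCaT alone 6.67%, higher in both lines 22.3% and lower in both 11.6%. Of the mitotic genes over 2-fold higher in both lines, AURKB, BIRC5, CCNA2 and KIF20A gave no match or had no promoter among those searched. These stretches show the motif, in capitals, in the rest, CDC20, KIF11 and DLGAP5.
CDC20, GRCh38.p14 chr1:43358908-43358929, + strand, 65 bases before the start: ggttggatTTTGAAggagccaa
KIF11, GRCh38.p14 chr10:92593094-92593115, + strand, 28 bases before the start: gtctctttTTCAAAttgaggcg
DLGAP5, GRCh38.p14 chr14:55191710-55191731, - strand, 138 bases before the start: acccatctTTTGAActggccct
CDC20, the activator of the anaphase-promoting complex, was 2.27-fold higher in A431 and 10.7-fold in HaCaT, KIF11, a spindle motor, 2.03-fold and 13.5-fold, and DLGAP5, a spindle protein, 2.05-fold and 13.9-fold.

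Proteasome and glycolysis genes were also mostly higher in HaCaT. Of 31 proteasome genes 25 were over 2-fold higher in HaCaT and 0 in A431, with medians of 1.47 and 0.36. PSMD14, the deubiquitinase of the lid, was 122 CPM in siCTRL and 142 CPM in empty vector in A431 and 55.99 CPM in siCTRL and 270.3 CPM in empty vector in HaCaT. In the hypoxia and glycolysis list 21 of 31 were over 2-fold higher in HaCaT and 5 in A431, CA9 and NDRG1 in both. BNIP3, a mitophagy receptor, led the genes higher in HaCaT alone, at 1.42 CPM in siCTRL and 155 CPM in empty vector, 109-fold, while in A431 it was just under the threshold at 1.95-fold (32.5 CPM in siCTRL and 63.4 CPM in empty vector). LDHA, lactate dehydrogenase, was 359 CPM in siCTRL and 5344 CPM in empty vector in HaCaT and 887 CPM in siCTRL and 1294 CPM in empty vector in A431, a rise that was larger in HaCaT by edgeR (difference 3.35 ± 0.39 SE, FDR = 3.52e-04). Also among the 6 highest of HaCaT alone were XAF1, an interferon-induced promoter of apoptosis, at 4.698 CPM in siCTRL and 228 CPM in empty vector, SLC15A3, a lysosomal peptide transporter, at 0.219 CPM in siCTRL and 10.1 CPM in empty vector, and RNU6ATAC, over 2 counts in siCTRL. HSPE1-MOB4 is a readthrough gene with reads shared with HSPE1 and is uncertain. Of the 11 keratinocyte markers 5 were over 2-fold higher and 1 lower in HaCaT. Of 33 suprabasal and cornified envelope genes, which include keratins, 8 were higher and 9 lower there, against 11 and 2 in A431. The shares of all genes were 17.3% higher and 17.1% lower in HaCaT, and 4.44% and 2.06% in A431. KRT5 and KRT14, the basal pair, were 2.61-fold and 2.75-fold higher in A431 and 5.69-fold and 5.71-fold in HaCaT, and KRT6A, of activated keratinocytes, 2.68-fold and 22.7-fold. The siYAP libraries of A431 held 389, 317 and 389.8 CPM of KRT14, at the level of the vector libraries.

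Humanin-like genes fell together in HaCaT. These MTRNR2L loci are nuclear copies of the mitochondrial 16S ribosomal RNA, so reads of mitochondrial rRNA can be assigned to them and to one another, and they are read here as 1 sum. The 10 listed members added up to 46098 CPM in siCTRL HaCaT and 804 CPM in empty vector HaCaT, and all 7 tested were over 2-fold lower, the median on the log2 scale being -6.44. In A431 the sums were 27678 and 24433 CPM. YAP5SA HaCaT held 10262, 27392 and 3834 CPM and siYAP HaCaT 28158, 45408 and 37530.0 CPM, so empty vector lay below every other library. MTRNR2L8 alone was 14109 CPM in siCTRL and 163 CPM in empty vector in HaCaT (edgeR, FDR = 6.27e-04) and 8456 CPM in siCTRL and 7139 CPM in empty vector in A431.

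Ribosomal protein genes were lower in HaCaT by a small, broad margin. Of 79 tested 18 were over 2-fold lower and 50 fell by edgeR in HaCaT, against 17.1% and 21.1% of all genes, and none was called in A431, where 2 were higher at an unadjusted p under 0.05 and DESeq2 called 0. The median log2 fold change was -0.66 in HaCaT and -0.04 in A431. RPL28 was 284 CPM in siCTRL and 71.8 CPM in empty vector in HaCaT and 281 CPM in siCTRL and 266 CPM in empty vector in A431. With scaling by total counts the median of all genes in HaCaT was -0.12 in place of 0.03.

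Some genes of matrix, adhesion and growth control were also lower in HaCaT, although the matrix list as a whole had 18 members higher and 12 lower there. COLCA1 was 32.5 CPM in siCTRL and 0.127 CPM in empty vector, 255-fold lower, with 2.06 CPM in siCTRL and 1.10 CPM in empty vector in A431. The proteoglycans LUM and DCN went from 9.29 and 11.4 CPM in siCTRL HaCaT to no count in empty vector HaCaT, at least 97.2-fold and 119-fold lower. LUM was also over 2-fold lower in A431, at 9.70 CPM in siCTRL and 3.58 CPM in empty vector, while DCN was at 3 counts or fewer in both. Of the other fibroblast markers, COL1A1 was 1.69 CPM in siCTRL and 0.605 CPM in empty vector in HaCaT, and 0.343 and 1.74 CPM in A431. COL1A2, COL3A1, PDGFRA and PDGFRB were at 3 counts or fewer in every control library. NOTCH3, a Notch receptor, was 10.3 CPM in siCTRL and 0.637 CPM in empty vector in HaCaT and 20.3 CPM in siCTRL and 28.1 CPM in empty vector in A431. BCAM and LAMA5, a laminin receptor and the laminin chain it binds, were 9.15-fold and 6.98-fold lower in HaCaT, and 1.11-fold and 1.21-fold higher in A431. BTG2, a p53 target that restrains division, fell from 389.7 to 76.8 CPM in HaCaT (edgeR, FDR = 5.14e-04), as low as the 65.7, 55.4 and 48.4 CPM of YAP5SA. MINOS1-NBL1 is a readthrough gene that ranged from 0 to 18.6 CPM within the YAP5SA triplicate of HaCaT and is uncertain.

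A total of 113 genes, 0.965% of those measured in both lines, were over 2-fold in opposite directions, 46 higher in HaCaT (0.393%) and 67 lower (0.572%). CXCL8 (interleukin-8) and CXCL1, which attract neutrophils, headed them. CXCL8 was 77.9 CPM in siCTRL and 7.49 CPM in empty vector in A431, 10.4-fold lower, and 0.492 CPM in siCTRL and 47.9 CPM in empty vector in HaCaT, 97.4-fold higher. Both passed edgeR (FDR = 0.00815 and 1.90e-05), as did the difference of the lines (FDR = 5.56e-05), and the treated libraries stood on the same sides, at 103, 62.02 and 73.05 CPM in siYAP and 26.1, 15.7 and 16.3 CPM in YAP5SA of A431, and 0.929, 1.21 and 0.859 CPM and 45.3, 81.1 and 47.2 CPM in HaCaT. CXCL1 was 8.42-fold lower in A431 and 27.9-fold higher in HaCaT. NPIPA7 and NPIPA8 had opposite signs too, but they are near-identical copies between which the estimated counts were split, and are uncertain. FCGRT, the neonatal Fc receptor, was 0.392 CPM in siCTRL and 1.56 CPM in empty vector in A431 and 6.500 CPM in siCTRL and 1.27 CPM in empty vector in HaCaT.

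Genes of amino acid stress controlled by ATF4 made up 10 of the 113. Of 32 in the ATF4 and unfolded protein list, 11 were over 2-fold lower and 2 higher in A431, and 21 were higher and 0 lower in HaCaT, with medians of -0.54 and 1.24. By edgeR 21 rose in HaCaT, against 26.2% of all genes. In A431 1 rose and 1 fell, against 0.874% and 0.531%. PSAT1, of serine synthesis, was 134 CPM in siCTRL and 27.6 CPM in empty vector in A431 and 11.1 CPM in siCTRL and 182 CPM in empty vector in HaCaT. Replicate 1 of YAP5SA A431 held 26.00 CPM, like empty vector, and replicates 2 and 3 224 and 182 CPM, so the A431 difference lies within the spread of that triplicate (FDR = 0.221 by edgeR). ASNS (asparagine synthetase) was 213 CPM in siCTRL and 63.7 CPM in empty vector and 5.24 CPM in siCTRL and 53.5 CPM in empty vector, with the same split of the YAP5SA A431 triplicate at 65.98, 334 and 290.1 CPM. STC2, a secreted glycoprotein of stress, was 9.002-fold lower in A431 and 2.96-fold higher in HaCaT, and CHAC1, which degrades glutathione, 4.17-fold lower and, from 0 counts, at least 10.9-fold higher. In HaCaT the vector libraries lay above the siRNA libraries for PSAT1 and ASNS, as they did for 30.4% of all genes. FST, the activin antagonist, was 3.04-fold lower in A431 and 22.02-fold higher in HaCaT, and the EGF receptor ligand EREG 1.79-fold lower and 20.4-fold higher. Neither A431 difference passed edgeR (FDR = 0.322 and 0.226).

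**Figure D4:**
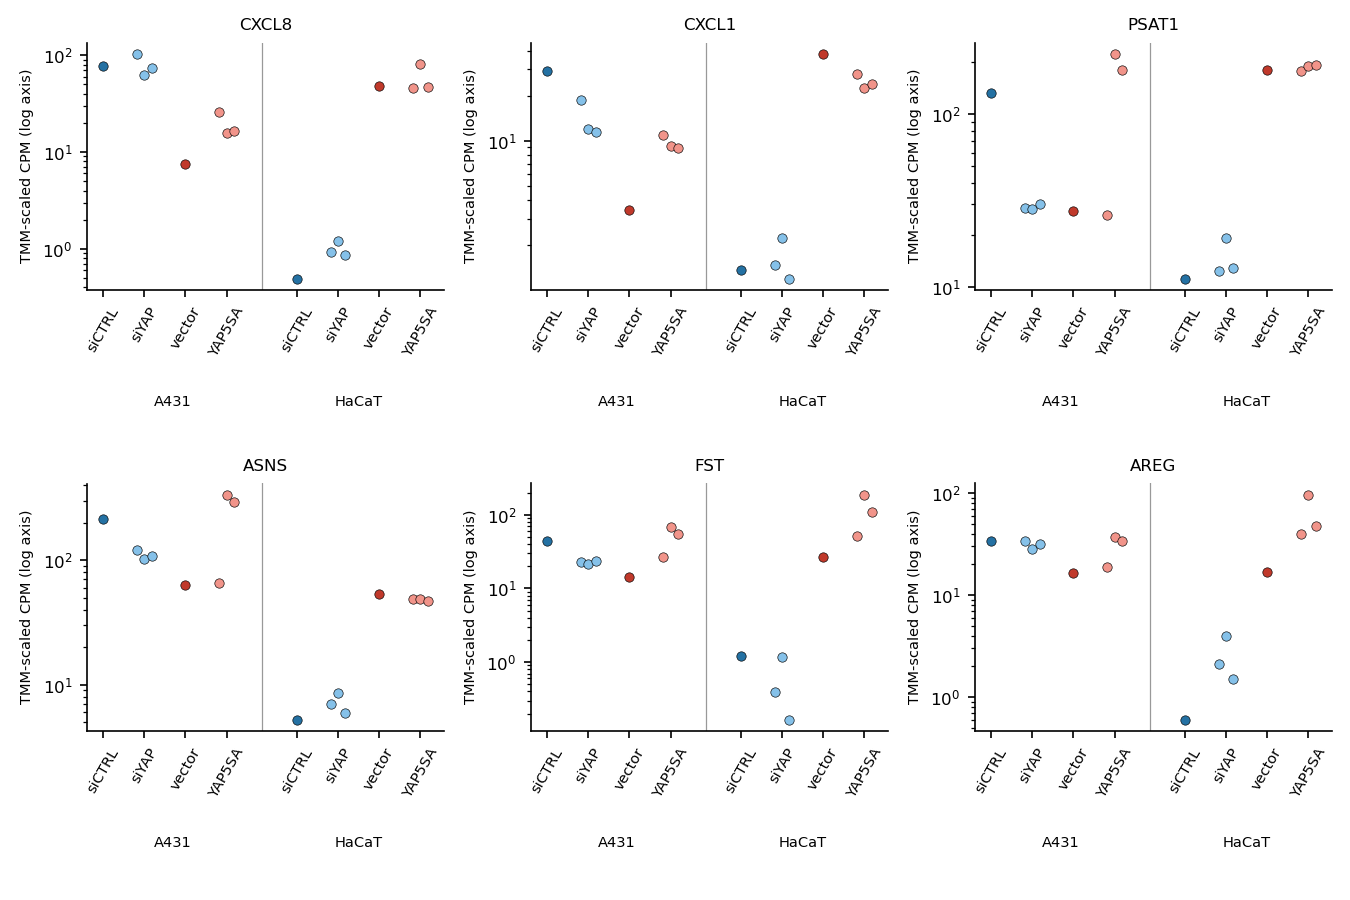
TMM-scaled CPM of CXCL8, CXCL1, PSAT1, ASNS, FST and AREG in each library on log axes, with A431 left and HaCaT right of the grey line and 1 point a library. In HaCaT both vector groups lie above both siRNA groups for each gene, as they do for 30.4% of all genes. In A431 empty vector lies below siCTRL, with the YAP5SA replicates split for PSAT1 and ASNS.

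In A431 alone 263 genes (2.25%) were higher and 129 (1.10%) lower, 3.35% in all. Of these, 67 of the higher and 46 of the lower genes were over 2-fold the other way in HaCaT. TICAM2, SMG1P5 and BLOC1S5-TXNDC5 had no count in siCTRL A431, at least 61.9-fold, 22.2-fold and 48.4-fold below empty vector, but the siYAP libraries of the same line held up to 5.38, 12.96 and 24.4 CPM, and the last 2 share sequence with other genes. RAD51L3-RFFL, lower, is a readthrough gene of the same kind. Metallothioneins, which bind zinc and copper, were higher in A431 and not in HaCaT. Of the list, 3 of the 4 tested were over 2-fold higher in A431 and 0 in HaCaT, with medians of 1.49 and -0.17. MT1E was 26.5 CPM in siCTRL and 92.02 CPM in empty vector in A431 (edgeR, FDR = 0.00815) and 85.6 CPM in siCTRL and 63.3 CPM in empty vector in HaCaT, and the difference of the lines passed edgeR (FDR = 0.00155). The YAP5SA libraries of A431 were at 87.4, 92.5 and 87.6 CPM and the siYAP libraries at 17.6, 18.7 and 15.3 CPM. MT2A was 3.38-fold and 1.06-fold higher.

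YAP1 itself was not called different between the controls. It was 94.3 CPM in siCTRL and 124 CPM in empty vector in A431 and 254 CPM in siCTRL and 423 CPM in empty vector in HaCaT, log2 fold changes of 0.40 and 0.73 that did not pass edgeR (FDR = 0.809 and 0.342). The siYAP libraries held 5.34, 6.998 and 5.04 CPM in A431 and 23.2, 21.6 and 21.8 CPM in HaCaT, and the YAP5SA libraries 1495, 3245 and 2939.6 CPM and 7549, 22255 and 10069 CPM. WWTR1, which encodes the paralogue TAZ, was 174 CPM in siCTRL and 138 CPM in empty vector in A431 and 81.2 CPM in siCTRL and 85.3 CPM in empty vector in HaCaT, and EGFR 1032 CPM in siCTRL and 750.0 CPM in empty vector and 443 CPM in siCTRL and 298 CPM in empty vector. The YAP target CYR61, a matricellular protein, was 58.4 CPM in siCTRL and 24.3 CPM in empty vector in A431 and 6.45 CPM in siCTRL and 21.1 CPM in empty vector in HaCaT: 2.40-fold lower and not past edgeR in A431 (FDR = 0.179), 3.27-fold higher in HaCaT (FDR = 0.0123). CTGF was at 1 and 0 counts in A431 and 0.874 CPM in siCTRL and 1.66 CPM in empty vector in HaCaT. AREG, an EGF receptor ligand, was 33.8 CPM in siCTRL and 16.6 CPM in empty vector in A431 and 0.601 CPM in siCTRL and 16.8 CPM in empty vector in HaCaT, 2.04-fold lower and 27.98-fold higher, and the lines differed by edgeR (FDR = 0.00325). Of 38 YAP targets tested 8 were over 2-fold higher and 7 lower in HaCaT, beside 17.3% and 17.1% of all genes. In A431 2 were higher and 6 lower, beside 4.44% and 2.06%. The medians were 0.14 in HaCaT and -0.36 in A431. By edgeR 8 rose and 12 fell in HaCaT, against 26.2% and 21.1% of all genes.

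Other lists also differed in HaCaT. There 14 of 22 NRF2 antioxidant targets, 10 of 25 cholesterol synthesis genes, 9 of 17 genes of MHC class I presentation and 14 of 34 EGFR and ERK response genes were over 2-fold higher and 1, 1, 1 and 3 lower. In A431 5, 0, 0 and 1 were higher and 1, 0, 0 and 5 lower. Of all genes, 17.3% were over 2-fold higher and 17.1% lower in HaCaT, and 4.44% and 2.06% in A431. AKR1C1, an aldo-keto reductase with near-identical relatives, was 5.05 CPM in siCTRL and 23.3 CPM in empty vector in A431 and 0.929 CPM in siCTRL and 65.4 CPM in empty vector in HaCaT. SQLE (squalene epoxidase) was 4.95-fold higher in HaCaT and 1.25-fold lower in A431. HLA-C rose in both lines by edgeR, 1.79-fold (FDR = 0.0427, or 0.0583 with each line fitted alone) and 2.49-fold (FDR = 1.11e-04). Of 74 respiratory chain genes 9 were over 2-fold higher and 4 lower in HaCaT, both below the shares of all genes. The medians were 0.37 in HaCaT and 0.27 in A431, which became -0.02 and 0.14 with length and GC content removed. LOXL2, a lysyl oxidase among the 44 matrix genes tested, was at 0.765 CPM in siCTRL and 25.5 CPM in empty vector in HaCaT and 28.8 CPM in siCTRL and 57.5 CPM in empty vector in A431.

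**Figure D5:**
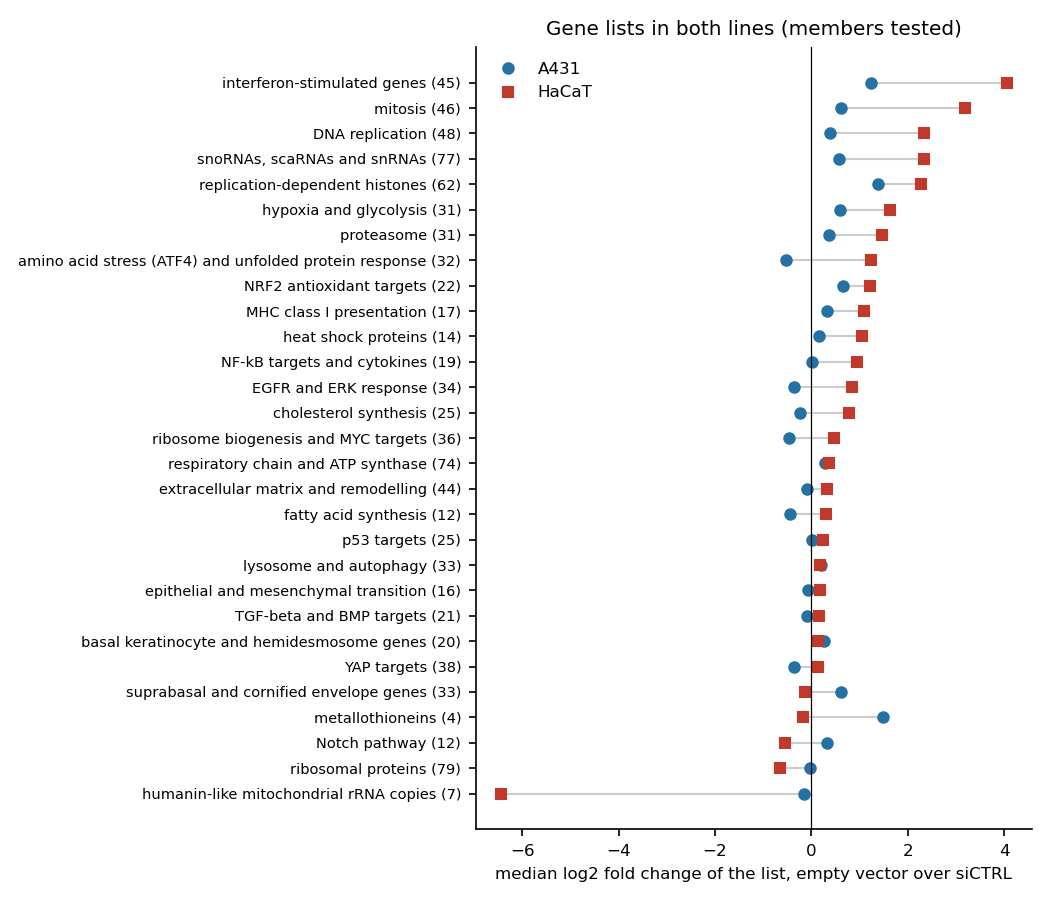
Median log2 fold change of empty vector over siCTRL for each gene list with at least 4 members tested, in A431 (circles) and HaCaT (squares), with the number tested in brackets. Interferon-stimulated genes and histones are above 1 in both lines, and the humanin-like copies, at -6.44, are lowest in HaCaT and near 0 in A431.

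The genes chosen by the control comparison were also read in libraries it did not use, the 3 YAP5SA and 3 siYAP libraries of each line, in which YAP differs as well. By edgeR, YAP5SA against siYAP called 5076 genes in A431 (41.5%) and 8805 in HaCaT (71.9%). Of the 242 genes higher in both empty vector libraries, 158 were called higher in A431, 207 in HaCaT and 151 in both, against 17.5% of all genes in both, and 2 and 5 were called lower. Of the 95 lower genes, 63, 74 and 52 were called lower, against 11.4% in both. In HaCaT alone, 1608 of the 1768 higher and 1553 of the 1883 lower genes were called the same way in HaCaT, against 37.7% and 34.2% of all genes. In A431, 994 and 719 of these same genes were called the same way too, against 23.9% and 17.5%. The class is thus set by the 2-fold limit and is not a list of genes that differ only in HaCaT. For genes of A431 alone, in A431, the counts were 65 of 263 higher ones against 23.9% of all genes and 40 of 129 lower ones against 17.5%. Among the lists, 37 interferon-stimulated genes, 62 histones and 40 mitotic genes were called higher in A431, and 44, 58 and 45 in HaCaT, while of the small nuclear and nucleolar RNAs of A431 edgeR called 0 higher and 4 lower, and DESeq2 0 and 5. GH1, at 0 in the 6 siYAP libraries, was above 20 CPM in the 6 YAP5SA libraries. YAP and the kind of culture cannot be told apart in these counts.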

How the data were processed

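RNA-seq libraries of 16 cultures were used, 4 of them controls. The authors deposited a table of estimated counts per gene made with RSEM on hg19. Per the labels the RSEM version was 1.2.11, and the study's methods name another version. Samples were grouped by their labels, and no column of a sample outside the labels was used (0 such columns). Estimated counts were rounded to whole numbers. Of 26229 listed genes, 14673 had a mean above 10 counts, and 12240 also a logCPM above 1. Control libraries held 18115624 to 34382933 counts, so 3 counts were 0.0955 to 0.164 CPM. Intervals of ratios are exact and cover counting error only.

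Counts were scaled by TMM and fitted with edgeR 4.0.16 (quasi-likelihood, 8 groups, 8 residual degrees of freedom, R 4.3.3), with Benjamini-Hochberg adjusted values, FDR, called under 0.05. DESeq2 1.42.0 was an alternative. The study's methods call the triplicates biological, and each control is 1 library. The fit was tested on simulated data. Genes were named by rule: the 10 highest and 10 lowest in both lines by the smaller fold, the 6 highest and 6 lowest of HaCaT alone, the 3 largest each way of A431 alone and of opposite directions, 6 YAP pathway genes, and list members over 2-fold in both lines or among the 4 largest of a list. Members, lists and rule were chosen with earlier results of these data known. Names turned into dates (28 rows) and shared names were not named, and some genes the rule names are not reported here. Length and GC content were those of reference transcript sequences, matched by symbol for 98.1% of genes. Figures used matplotlib 3.10.9.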

Additional observations from a re-analysis of the deposited data

Results flagged for a closer look

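Results appear here where the effect of empty vector against siCTRL differed between HaCaT and A431 by the test of the difference itself, edgeR FDR under 0.05, which held for 3225 genes. The values are the difference of the log2 fold changes, HaCaT minus A431, for the genes named in the report, where each control is 1 library.

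The difference was AKR1C1 3.92 in the list NRF2 antioxidant targets. For YAP targets the differences were AREG 5.82, CYR61 2.97 and TGFB2 1.47. Under amino acid stress (ATF4) and unfolded protein response stood CHAC1 10.75, PSAT1 6.30, ASNS 5.10 and STC2 4.73. From basal keratinocyte and hemidesmosome genes came LAMA5 -3.08 and BCAM -3.34. Among mitotic genes the differences were NUF2 3.41, CCNA2 3.13, CDK1 3.004, BIRC5 2.76, DLGAP5 2.76, KIF11 2.74 and CDC20 2.24. The differences were BNIP3 5.80 and LDHA 3.35 in the list hypoxia and glycolysis. For interferon-stimulated genes the differences were IFI27 11.01, IFI44L 7.52, MX2 7.16, MX1 5.76, IFI6 5.20, XAF1 5.06, BST2 4.91 and IFIT1 4.37. Under interferon-stimulated genes stood USP18 4.30, OAS2 3.74, IFIT3 3.04, IFIH1 2.79, OAS3 2.77, DDX58 2.69 and DHX58 1.48. From p53 targets came BTG2 -2.01. Among DNA replication genes the differences were CDC45 4.26, RRM2 4.08, CDC6 3.51, TYMS 3.46 and TK1 1.51. The difference was CDH5 -4.95 in the list endothelial markers. For genes outside the lists the differences were NPIPA8 11.32, SLC15A3 4.92, FCGRT -4.33, COLCA1 -7.05, SMG1P5 -9.41, NPIPA7 -11.62 and MINOS1-NBL1 -14.33. Under NF-kB targets and cytokines stood CXCL8 9.97 and CXCL1 7.87. From extracellular matrix and remodelling came LOXL2 4.05, TIMP3 -2.01, LUM -9.63 and DCN -11.27. Among EGFR and ERK response the difference was EREG 5.18. The difference was FST 6.06 in the list TGF-beta and BMP targets. For replication-dependent histones the difference was HIST1H2BM 3.35. Under keratinocyte markers stood KRT6A 3.08. From metallothioneins came MT2A -1.67 and MT1E -2.23. Among humanin-like mitochondrial rRNA copies the difference was MTRNR2L8 -6.19. The difference was NOTCH3 -4.47 in the list Notch pathway. For proteasome genes the difference was PSMD14 2.06. Under snoRNAs, scaRNAs and snRNAs stood RNU6ATAC 5.47. From ribosomal proteins came RPL28 -1.90. Among cholesterol synthesis genes the difference was SQLE 2.63. Fitted values of CHAC1, LUM, DCN, NPIPA7, NPIPA8, SMG1P5 and MINOS1-NBL1 depend on the prior count, since 1 control library of each held no count, and the last 4 share reads with other genes. The cause of a difference between the lines was not tested.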

How the results depend on the processing

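Each control is 1 library, so a fold change has no replicate check, and the edgeR calls assume that controls vary like the treated triplicates. The control groups share no replicate numbers to block on. In the treated comparison, replicates with the same number did not deviate together (correlations of -0.0629 to 0.0726 over all number pairs), and with the replicate number as a block edgeR called 4819 genes in A431 and 8680 in HaCaT.

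Counts of genes over 2-fold depended on the threshold. In A431 777 became 481 at 10 CPM or more in the higher library, 219 over 3-fold and 378 with the counting interval beyond 2-fold, and the 337 shared by the lines became 207, 88 and 186. Over 3-fold, HaCaT had 2036 and HaCaT alone 1843. The 172 edgeR calls of A431 became 573 with the likelihood ratio test and 737 with DESeq2. Leaving out 1 treated library gave 67 to 465 calls: 465 without YAP5SA A431 replicate 1, 67 without its replicate 3, 401 and 367 without YAP5SA HaCaT replicates 1 and 2, 87 and 100 without siYAP HaCaT replicates 1 and 3, and 105 and 103 without siYAP A431 replicates 2 and 3. The 4252 calls over both lines became 70 when the 4 control libraries were fitted alone, paired by line.

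With length and GC content removed, an alternative chosen after seeing the data, 664 genes were over 2-fold in A431, 3489 in HaCaT, 296 in both and 3048 in HaCaT alone, and SNORA80B in A431 went from 1.00002 to -0.0298. Where each of the 16 libraries had to hold over 10 counts, the endothelial marker median of A431 went from -1.42 to 0.83 as fewer genes were tested. The cause of the other changes was not tested. Of 151 counts 132 stayed within 1.5 times. For named genes that edgeR called, 2564 of 2644 results under other settings stayed called in the same direction. Named genes not called at first, and the fits without 1 treated library, were not part of that figure.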
